A study of Mus musculus with 6 samples.

Results

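Calcium pumps and the genes of store-operated calcium entry were examined in CD4+ T cells from mouse spleen after 12 hours of stimulation through CD3 and CD28. The 10 genes are the plasma membrane pumps Atp2b4 and Atp2b1, the endoplasmic reticulum pumps Atp2a2 and Atp2a3, the store sensors Stim1 and Stim2, the channel subunits Orai1 and Orai2, and the release channels Itpr1 and Itpr3. They were chosen by function around Atp2b4, which was selected on its measured increase in PlGFCM, so the values of Atp2b4 are a description and carry no test. For each gene the probe set with the highest mean over the 6 arrays was used. Of the 10 genes 9 were measured among 22180 in all, and Itpr1, for which the platform annotation used here names no probe set, was not analysed here.

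The 3 groups held 2 samples each. PlGFCM cells received medium conditioned by clones of HEK-293, a line from human embryonic kidney, that overexpress PlGF2, a form of placental growth factor. IL6_ConCM cells received control conditioned medium with IL-6 at 20 ng/ml, and ConCM cells received the control conditioned medium alone. All cells were isolated with magnetic beads, kept in RPMI medium with 10% fetal bovine serum and stimulated with the antibodies at 1 µg/ml, controls included. The sources used here give no strain, age or number of mice, no concentration of PlGF and no origin of the control medium, so PlGF and anything else that differs between the media cannot be told apart. Levels are log2 values of an Affymetrix whole-transcript array, which show levels of RNA and not pump or channel activity.

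Stimulation of a T cell receptor leads through phospholipase C to inositol trisphosphate (IP3), which opens IP3 receptors in the endoplasmic reticulum and lets stored calcium out. STIM proteins sense the emptied store and open ORAI channels in the plasma membrane, and the sustained calcium that enters activates calcineurin and the NFAT transcription factors. SERCA pumps, encoded by the Atp2a genes, return calcium to the store, and the plasma membrane pumps (PMCA), encoded by the Atp2b genes, export it from the cell and are activated by calmodulin.

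The arrays were alike in their distribution, with median log2 levels of 5.47 to 5.51. Pearson's r across genes, which are not independent replicates, was 0.994 to 0.995 between arrays of 1 group and 0.993 to 0.995 between arrays of different groups. PlGFCM replicate 2 stood apart in Xist, an RNA of the inactive X chromosome, at 8.38 against 3.58 to 3.95 on the other 5 arrays. It was also lowest in the Y-linked genes Uty (7.50, against 7.77 to 8.14 on the others), Kdm5d (7.07, against 7.42 to 7.77) and Eif2s3y (8.59, against 8.90 to 9.14), so the changes of Atp2b4, Atp2a3 and Stim2 in PlGFCM are given with and without it. The 9 measured T cell markers averaged 10.34 and 10.32 in PlGFCM, 10.40 and 10.31 in IL6_ConCM and 10.32 and 10.22 in ConCM, and all 9 lay above the median of all probe sets. The 9 measured B cell markers averaged 6.52 to 6.59 over the 6 arrays, the 10 myeloid markers 6.30 to 6.49, the 7 dendritic cell markers 5.65 to 5.90, the 8 markers of NK and CD8 T cells 5.84 to 6.06 and the 6 markers of erythroid cells and platelets 4.96 to 5.16. At or above that median also lay 8 of 9 B cell and 8 of 10 myeloid markers. So did 4 of 7 dendritic cell markers and 4 of 8 markers of NK and CD8 T cells. Of the erythroid and platelet markers, 3 of 6 did. Cd68, a myeloid marker, had a mean level of 8.54 and Cd8b1, a marker of CD8 T cells, one of 8.10. Summed on the linear scale and given as log2, the B cell markers were at 9.88 and 9.85 in PlGFCM, 9.81 and 9.83 in IL6_ConCM and 9.86 and 9.88 in ConCM, and the myeloid markers at 10.24 and 10.12, 10.17 and 10.18, and 10.11 and 10.21 in the same order of groups. Among these 40 measured markers of other cells 3 passed limma's test in PlGFCM against ConCM, where 0.433% of all 22180 genes passed. They were Ms4a1, Fcer2a and Clec7a, all lower in PlGFCM, and no marker passed as higher. Ms4a1 was at 5.47 and 5.64 in PlGFCM, 6.12 and 6.07 in IL6_ConCM and 6.41 and 6.39 in ConCM. By sign alone, passed or not, 20 of the 40 markers were higher in PlGFCM than in ConCM and 20 lower. Higher by sign were 6 of 9 B cell and 6 of 10 myeloid markers. Cd14, a myeloid receptor for lipopolysaccharide, had log2 levels of 6.95 and 6.91 in PlGFCM, 6.01 and 6.45 in IL6_ConCM and 6.25 and 6.26 in ConCM, and did not pass. The part of these other cells in the results was not tested.

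Atp2b4 encodes PMCA4, and its start region is shown first because Atp2b4 is the member with the large change. The RefSeq windows (GRCm38.p6) run from 250 bases before to 50 bases after an annotated start. Windows were found for 8 of the 10 genes, with 9 starts in all, and 3 are printed 5′ to 3′ on the gene's strand, namely Atp2b4, its closest relative among the members, Atp2b1, and Orai1, which holds the single STAT match. Capitals mark matches on either strand to TTCNNNGAA, the form that STAT factors bind, and to GGAAA, the core that NFAT factors bind. No match of these 2 motifs overlapped a match of the other in the printed windows.
Atp2b4 chr1:133753698-133753997, minus strand: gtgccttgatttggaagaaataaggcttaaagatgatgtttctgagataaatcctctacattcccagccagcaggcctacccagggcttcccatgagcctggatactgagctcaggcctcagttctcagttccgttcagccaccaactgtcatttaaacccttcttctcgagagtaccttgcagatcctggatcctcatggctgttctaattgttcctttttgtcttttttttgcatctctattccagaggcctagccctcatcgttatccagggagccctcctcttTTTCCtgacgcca
Atp2b1 chr10:98914392-98914691, plus strand: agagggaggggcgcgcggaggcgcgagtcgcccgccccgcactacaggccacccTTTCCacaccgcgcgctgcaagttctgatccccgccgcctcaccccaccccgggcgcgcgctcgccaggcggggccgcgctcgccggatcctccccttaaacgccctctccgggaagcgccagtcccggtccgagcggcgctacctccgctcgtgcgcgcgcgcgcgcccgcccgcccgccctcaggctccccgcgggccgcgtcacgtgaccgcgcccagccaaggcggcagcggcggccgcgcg
Orai1 chr5:123014824-123015123, plus strand: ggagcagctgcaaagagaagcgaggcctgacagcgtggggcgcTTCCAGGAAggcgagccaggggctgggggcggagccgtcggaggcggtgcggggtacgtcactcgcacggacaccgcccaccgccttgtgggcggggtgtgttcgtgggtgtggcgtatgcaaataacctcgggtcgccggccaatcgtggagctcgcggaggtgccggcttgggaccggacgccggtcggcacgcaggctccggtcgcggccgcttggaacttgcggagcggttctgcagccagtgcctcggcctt

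The Atp2b4 window held no TTCNNNGAA and 1 GGAAA, which lies on the opposite strand 38 bases after the start. Across all 32851 windows of this length in the table, 8.3% held TTCNNNGAA and 61.3% held GGAAA. Of the 9 member windows 1, that of Orai1, held TTCNNNGAA and 3, those of Atp2b4, Orai2 and the first start of Atp2b1, held GGAAA. The sites of AP-1 factors (TGANTCA) and of cyclic AMP response factors (TGACGTCA) were in 0 of the 9, against 7.81% and 1.79% of all windows. The Atp2b4 window had a GC content of 47.7% and 4 CpG dinucleotides, while the other 8 member windows ranged from 68.0% to 79.3% and from 24 to 54 CpG, and the median GC content of all windows was 52.7%. The annotated start of the Atp2b4 window lies 47312 bases inside the outer 5′ end of the gene's RefSeq span, so other starts of Atp2b4 are not in this window. Which start the cells used was not tested, and a match or its lack in these letters says nothing of whether a factor binds.

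Atp2b4 was higher in both treated groups than in ConCM, and highest in PlGFCM. Its log2 level was 10.08 and 10.15 in PlGFCM, 9.80 and 9.87 in IL6_ConCM and 9.19 and 8.96 in ConCM. The 3 groups did not overlap, and the lowest PlGFCM array exceeded the highest ConCM array by 0.89 and the lowest IL6_ConCM array exceeded it by 0.61, whereas the widest gap between replicates of a group was 0.23, in ConCM. The means were 10.11 ± 0.05 in PlGFCM, 9.83 ± 0.05 in IL6_ConCM and 9.07 ± 0.16 in ConCM (SD, n = 2 each). In RNA of a whole sample, more cells that express a gene and more RNA per cell cannot be told apart.

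The log2 change of Atp2b4 was 1.04 ± 0.08 (SE) in PlGFCM against ConCM, a 2.06-fold difference, and 0.76 ± 0.08 in IL6_ConCM against ConCM, a 1.69-fold difference. Both comparisons use the same ConCM arrays. By size, the change in PlGFCM was 14th among the 22180 genes and that in IL6_ConCM 41st. As Atp2b4 was chosen for its increase in PlGFCM, its high rank there follows from the choice. Its rank in IL6_ConCM rests on the same ConCM arrays, so it is not independent of that choice. Without PlGFCM replicate 2 the change in PlGFCM was 1.00 ± 0.11, and over all 14 alternatives it lay between 0.93 and 1.16. The change in IL6_ConCM lay between 0.64 and 0.87, with the lowest value without ConCM replicate 2. PlGFCM exceeded IL6_ConCM by 0.28 ± 0.08, or 1.22-fold, and the lowest PlGFCM array exceeded the highest IL6_ConCM array by 0.21.

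**Figure D1:**
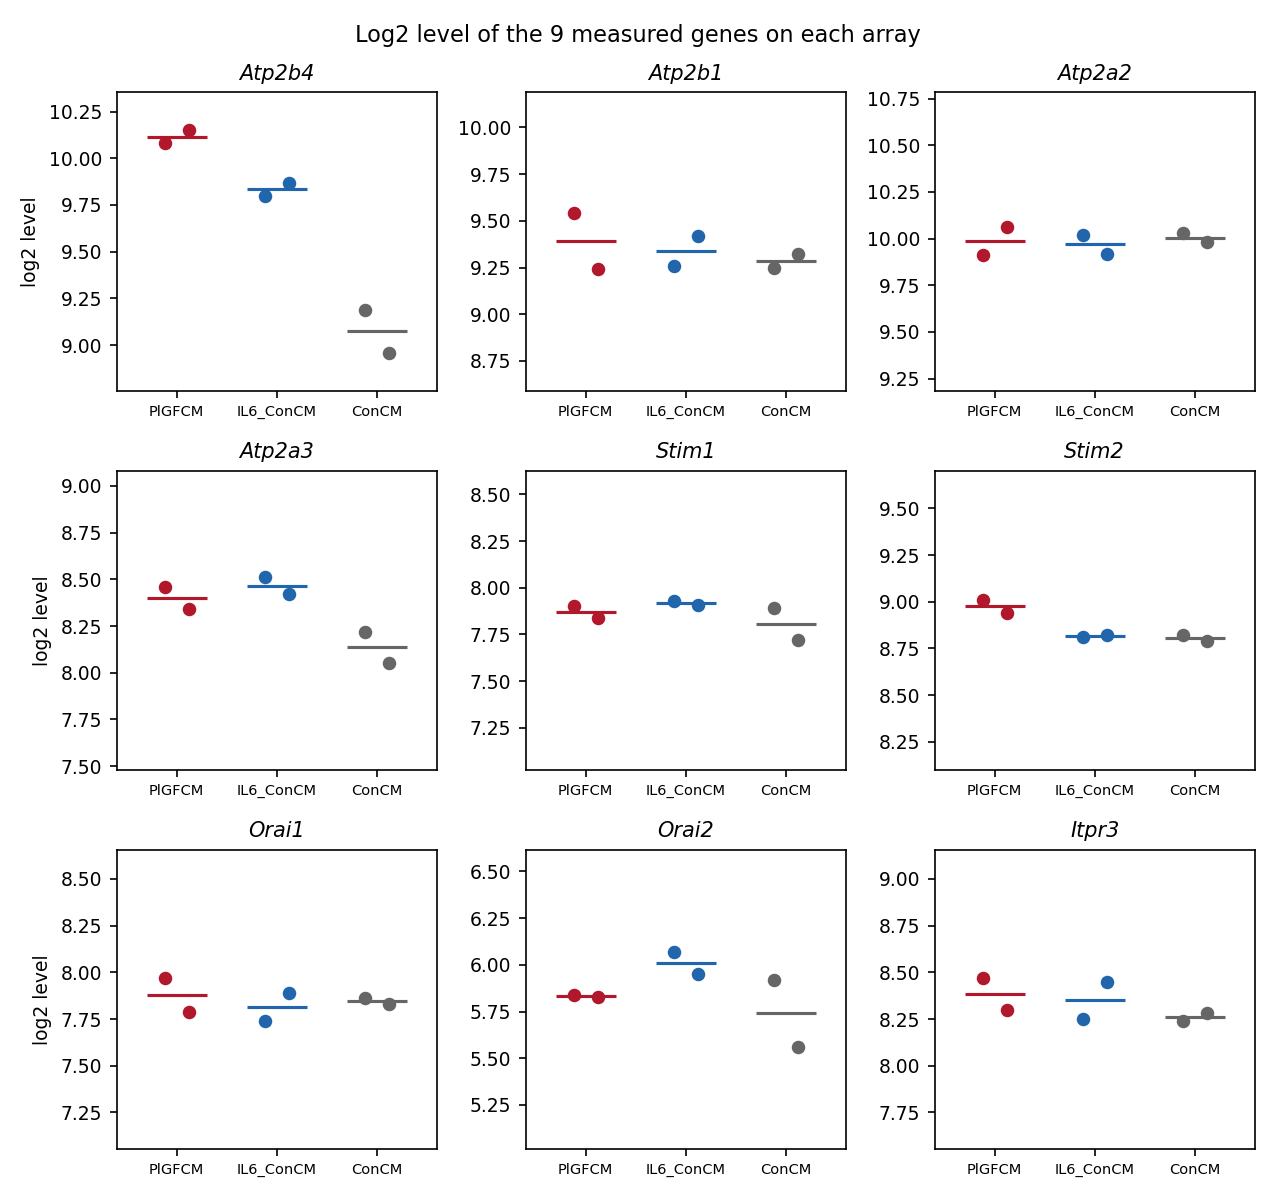
Log2 level (y axis, each panel spanning the same height) of the 9 measured genes on the 2 arrays of each group. Points are arrays and lines are group means. Atp2b4 lies at 10.08 and 10.15 in PlGFCM, 9.80 and 9.87 in IL6_ConCM and 9.19 and 8.96 in ConCM, while Atp2a2 ranges over 0.16 across the 6 arrays.

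Of the 9 members 1 passed limma's test in PlGFCM against ConCM at an adjusted p under 0.05 over all genes, where 0.433% of the 22180 genes passed (78 higher and 18 lower). In IL6_ConCM against ConCM 1 of 9 passed, where 0.113% of all genes did, and in PlGFCM against IL6_ConCM 0 of 9 passed, where 0.0316% did. The member that passed in each comparison with ConCM was Atp2b4, and as it was picked for its increase, nothing is read from these counts. The count was 0 in both comparisons without an intensity trend in the variance, and 0 in IL6_ConCM against ConCM without IL6_ConCM replicate 2 or without ConCM replicate 2. Of the 8 members other than Atp2b4, 2 (Atp2a3 and Stim2) had an unadjusted limma p under 0.05 in PlGFCM against ConCM, 1 (Atp2a3) in IL6_ConCM against ConCM and 0 in PlGFCM against IL6_ConCM, where 8.74%, 5.62% and 4.37% of all genes did. Groups did not overlap for 4 of 9 members in each of the 3 comparisons, where 38.2%, 34.1% and 30.1% of all genes did not overlap. With 2 arrays a group an exact permutation test cannot give a two-sided p below 0.333.

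Atp2b1, which encodes PMCA1, the plasma membrane pump of most tissues, had group means in the same order as Atp2b4, but its groups were not separated. Its log2 level was 9.54 and 9.24 in PlGFCM, 9.26 and 9.42 in IL6_ConCM and 9.25 and 9.32 in ConCM. All 3 groups overlapped, and the 2 PlGFCM arrays lay 0.30 apart, which is more than any difference between group means. The log2 change was 0.11 ± 0.10 in PlGFCM against ConCM (95% interval -0.11 to 0.33, limma adjusted p = 0.831) and 0.05 ± 0.10 in IL6_ConCM against ConCM (-0.17 to 0.27, adjusted p = 1.0). The upper bounds correspond to 1.26-fold and 1.21-fold.

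Atp2a2 encodes SERCA2, the pump that refills the store in nearly all cells, and it had the narrowest range of the 4 pumps, 0.16 over the 6 arrays. Its log2 level was 9.91 and 10.06 in PlGFCM, 10.02 and 9.92 in IL6_ConCM and 10.03 and 9.98 in ConCM. The groups overlapped in every comparison. Its log2 change was -0.02 ± 0.08 in PlGFCM (interval -0.19 to 0.15, limma adjusted p = 0.969) and -0.03 ± 0.08 in IL6_ConCM (-0.20 to 0.13, adjusted p = 1.0), each against ConCM.

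Atp2a3 encodes SERCA3, a pump with lower calcium affinity that is found in blood cells. Its log2 level was 8.46 and 8.34 in PlGFCM, 8.51 and 8.42 in IL6_ConCM and 8.22 and 8.05 in ConCM. Both treated groups lay above ConCM without overlap, and they overlapped each other. The log2 change was 0.27 ± 0.09 in PlGFCM against ConCM (unadjusted p = 0.0155, limma adjusted p = 0.392) and 0.33 ± 0.09 in IL6_ConCM against ConCM (unadjusted p = 0.00509, adjusted p = 0.462), so neither passed. These were the largest values among the 8 members other than Atp2b4, and both rest on the same ConCM arrays. Without ConCM replicate 2, the lower of the ConCM arrays, they were 0.18 and 0.24, and without PlGFCM replicate 2 the change in PlGFCM was 0.33.

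Stim1 is the main sensor of store depletion, and Stim2 the sensor of small drops in the store. Stim1 had log2 levels of 7.90 and 7.84 in PlGFCM, 7.93 and 7.91 in IL6_ConCM and 7.89 and 7.72 in ConCM. Its log2 change was 0.07 ± 0.09 in PlGFCM (limma adjusted p = 0.906) and 0.12 ± 0.09 in IL6_ConCM (adjusted p = 0.996), each against ConCM, and IL6_ConCM lay above ConCM by a margin of 0.02. Stim2 had log2 levels of 9.01 and 8.94 in PlGFCM, 8.81 and 8.82 in IL6_ConCM and 8.82 and 8.79 in ConCM. PlGFCM was thus above both other groups without overlap, by 0.11 between the nearest arrays, while IL6_ConCM and ConCM overlapped. The log2 change of Stim2 in PlGFCM was 0.17 ± 0.08 against ConCM (unadjusted p = 0.0493, limma adjusted p = 0.569) and 0.16 ± 0.08 against IL6_ConCM (unadjusted p = 0.0640, adjusted p = 0.998), and neither passed. Without PlGFCM replicate 2 the change against ConCM was 0.21. In IL6_ConCM against ConCM it was 0.01 ± 0.08 (interval -0.16 to 0.18, adjusted p = 1.0).

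Orai1 forms the pore of the main store-operated channel of T cells, and Orai2 is a related subunit known to dampen its current in mouse T cells. Orai1 had log2 levels of 7.97 and 7.79 in PlGFCM, 7.74 and 7.89 in IL6_ConCM and 7.86 and 7.83 in ConCM, and all groups overlapped. Its log2 change was 0.03 ± 0.10 in PlGFCM (interval -0.19 to 0.25, limma adjusted p = 0.960) and -0.03 ± 0.10 in IL6_ConCM (-0.25 to 0.19, adjusted p = 1.0), each against ConCM. Orai2 had log2 levels of 5.84 and 5.83 in PlGFCM, 6.07 and 5.95 in IL6_ConCM and 5.92 and 5.56 in ConCM. The ConCM arrays of Orai2 were 0.36 apart, the widest gap between replicates among the 9 genes, and its mean of 5.86 lay near the median of 5.48 of all probe sets. Its log2 change was 0.10 ± 0.14 in PlGFCM (limma adjusted p = 0.907) and 0.27 ± 0.14 in IL6_ConCM (interval -0.04 to 0.58, adjusted p = 0.930), each against ConCM, so a change of up to 1.49-fold in IL6_ConCM lies within its interval. In IL6_ConCM it was 0.09 without ConCM replicate 2 and 0.45 without ConCM replicate 1, and in PlGFCM -0.085 and 0.279 without the same arrays.

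Itpr3 encodes an IP3 receptor that releases calcium from the store, and it was the 1 member with 2 probe sets. The brighter had log2 levels of 8.47 and 8.30 in PlGFCM, 8.25 and 8.45 in IL6_ConCM and 8.24 and 8.28 in ConCM. PlGFCM lay above ConCM by a margin of 0.02, and the other comparisons overlapped. The log2 change was 0.12 ± 0.10 in PlGFCM (limma adjusted p = 0.786) and 0.09 ± 0.10 in IL6_ConCM (adjusted p = 0.997), each against ConCM. In PlGFCM it was 0.03 without PlGFCM replicate 1 and 0.21 without PlGFCM replicate 2. The dimmer probe set, which the fit did not use, had log2 levels of 5.82 and 5.83 in PlGFCM, 5.93 and 5.94 in IL6_ConCM and 5.89 and 6.04 in ConCM, so it was lowest in PlGFCM where the brighter was highest. The 2 probe sets of Itpr3 therefore disagreed in direction.

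Among the 8 members other than Atp2b4, the median log2 change was 0.102 in PlGFCM and 0.073 in IL6_ConCM, each against ConCM, where the median of all genes was -0.014 and -0.009. The change was above 0 for 7 of 8 in PlGFCM and for 6 of 8 in IL6_ConCM. It ran from -0.02 for Atp2a2 to 0.27 for Atp2a3 in PlGFCM and from -0.03 to 0.33, for the same genes, in IL6_ConCM. Atp2b4 thus exceeded the highest other member by 0.77 log2 units in PlGFCM and by 0.43 in IL6_ConCM. As Atp2b4 was chosen for its increase, this difference was not tested.

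**Figure D2:**
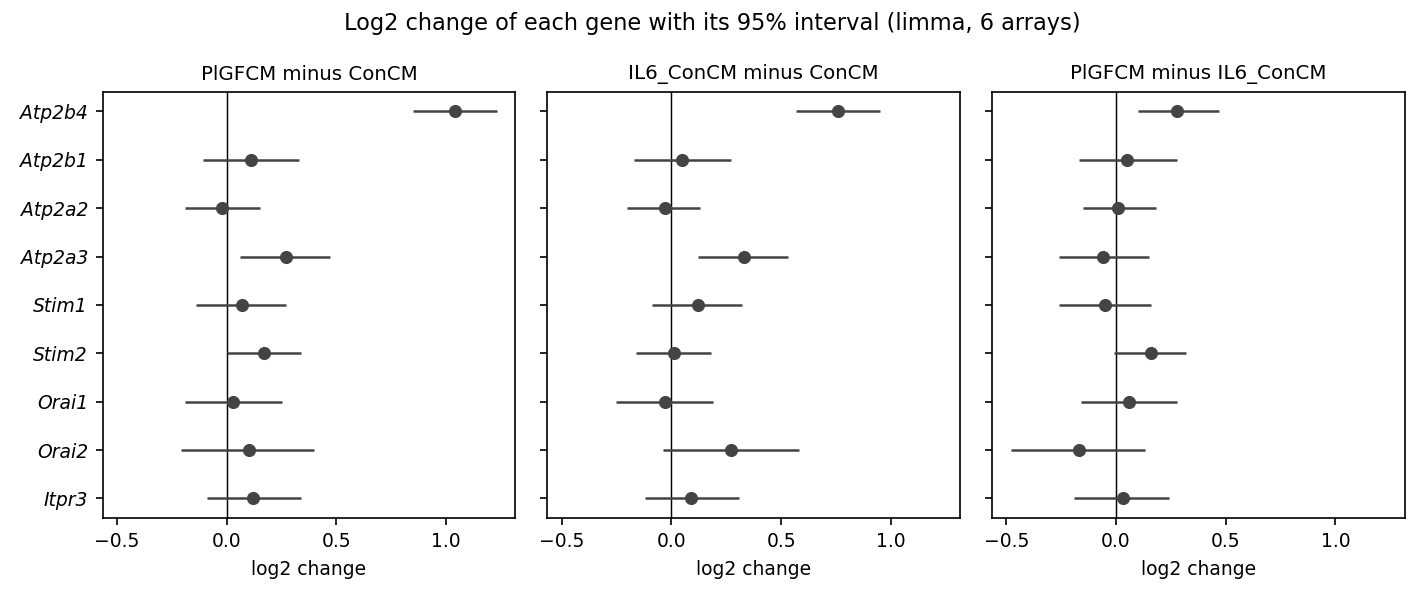
Log2 change (x axis) of the 9 genes in the 3 comparisons, with points for limma's estimate and lines for its 95% interval. The interval of Atp2b4 runs from 0.85 to 1.23 in PlGFCM minus ConCM and from 0.57 to 0.95 in IL6_ConCM minus ConCM. Atp2b4 was chosen for its increase, so its intervals are a description and not a test. The intervals of Atp2b1 and Atp2a2 hold 0 in all 3 comparisons.

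Further genes of calcium handling were described from 7 lists, with 134 of 149 genes measured, all distinct from the members. None of the 134 rose in any comparison, and 1 fell in each comparison with ConCM, which is 0.746% of them. Of all genes 0.433% passed in PlGFCM and 0.113% in IL6_ConCM, each against ConCM, and 0.0316% in PlGFCM against IL6_ConCM. At an unadjusted limma p under 0.05 stood 19 of the 134 (14.2%) in PlGFCM against ConCM, 15 (11.2%) in IL6_ConCM against ConCM and 9 (6.72%) in PlGFCM against IL6_ConCM, where 8.74%, 5.62% and 4.37% of all genes did. All genes were not matched to the lists in level, and the lists were chosen with earlier results known. The difference in these shares was not tested. The pump family held 5 further genes, none of which passed, with a median log2 change of -0.149 in PlGFCM and -0.12 in IL6_ConCM. The smallest p belonged to Atp2b2, a plasma membrane pump of neurons and hair cells. It was at 4.81 and 4.60 in PlGFCM, 4.95 and 5.22 in IL6_ConCM and 5.22 and 5.31 in ConCM, all under the median of all probe sets. Its log2 change in PlGFCM was -0.56 ± 0.15 (unadjusted p = 0.00255, limma adjusted p = 0.199), opposite in sign to that of Atp2b4. Atp2c2, a pump of the secretory pathway, was at -0.18 and Atp2b3, a plasma membrane pump of the brain, at -0.15 in PlGFCM.

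Of the regulators and partners of pumps 8 of 12 were measured and none passed. Bsg encodes basigin, a membrane glycoprotein that forms complexes with PMCA pumps, and its log2 change was 0.07 in PlGFCM and 0.02 in IL6_ConCM. Pdia3, a chaperone of the endoplasmic reticulum, was at 0.09 and 0.10 and Mrln, which encodes a small inhibitor of SERCA in muscle, at -0.17 and 0.01 in the same comparisons. The mean level of Mrln was 4.44, under the median of all probe sets. On the list of other genes of store-operated entry and release, 0 of 21 measured genes passed, with medians of -0.037 in PlGFCM and 0.005 in IL6_ConCM. Cracr2a, a cytosolic regulator of ORAI and STIM, had log2 levels of 6.79 and 6.79 in PlGFCM, 6.76 and 6.95 in IL6_ConCM and 6.61 and 6.48 in ConCM. Its log2 change was 0.24 ± 0.11 in PlGFCM (limma adjusted p = 0.572) and 0.31 ± 0.11 in IL6_ConCM (adjusted p = 0.718), each against ConCM. Esyt1, a tether between the endoplasmic reticulum and the plasma membrane, was at 0.19 and 0.17, and Ryr2, a release channel of heart muscle, at -0.36 and -0.18. The mean level of Ryr2 was 4.87, also under the median of all probe sets.

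Among other calcium channels, exchangers and genes of the membrane potential, 0 of 31 passed. Kcna3, the potassium channel that keeps T cells polarised while calcium enters, was at -0.19 ± 0.08 in PlGFCM (unadjusted p = 0.0392, limma adjusted p = 0.534) and at -0.06 in IL6_ConCM. Tmbim6, a calcium leak protein of the endoplasmic reticulum, was at 0.14 and 0.02 and P2rx1, an ATP-gated channel, at -0.29 and 0.01 in the same comparisons. P2rx1 had a mean level of 4.92, under the median of all probe sets. On the list from the T cell receptor to IP3, 0 of 21 passed, 17 were above 0 in PlGFCM and 16 in IL6_ConCM. The medians were 0.119 and 0.08, where those of all genes were -0.014 and -0.009. Plcg1, the phospholipase that makes IP3 in T cells, had log2 levels of 9.67 and 9.65 in PlGFCM, 9.40 and 9.48 in IL6_ConCM and 9.41 and 9.39 in ConCM. The PlGFCM arrays lay above all others, with a log2 change of 0.26 ± 0.07 against ConCM (unadjusted p = 0.00346, limma adjusted p = 0.230), which did not pass. Inpp5a and Itpkb, enzymes that convert IP3, were at 0.29 and 0.20 in PlGFCM and at 0.21 and 0.15 in IL6_ConCM. Itpka, another such enzyme, went the other way, at -0.40 ± 0.14 in PlGFCM (limma adjusted p = 0.392) and -0.06 in IL6_ConCM. Its mean level of 4.59 lay under the median of all probe sets.

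Downstream of calcium, 0 of 25 measured genes of calcineurin and NFAT passed, with medians of 0.041 in PlGFCM and 0.04 in IL6_ConCM. Fkbp1a, the binding protein of the calcineurin inhibitor tacrolimus, was at 0.19 and 0.20, the transcription factor gene Mef2c at -0.35 and -0.01 and the kinase gene Camk1d at -0.23 and -0.13. Of 23 NFAT target genes 1 fell, Nr4a3, and none rose, with medians of -0.03 in PlGFCM and -0.117 in IL6_ConCM. The change was above 0 for 10 of the 23 in PlGFCM and for 7 in IL6_ConCM, each against ConCM. Nr4a3, a nuclear receptor induced by T cell receptor signals, had log2 levels of 9.81 and 9.76 in PlGFCM, 9.57 and 9.27 in IL6_ConCM and 10.31 and 10.34 in ConCM. It fell by 0.55 ± 0.09 in PlGFCM (limma adjusted p = 0.0286) and by 0.91 ± 0.09 in IL6_ConCM (adjusted p = 0.00533), each against ConCM. In PlGFCM it passed in 8 of 14 alternatives and lost its call on leaving out either PlGFCM array or either ConCM array, on subtracting array medians and without an intensity trend, and in IL6_ConCM it passed in 12 of 14 and not without ConCM replicate 2 or without an intensity trend. Dgka, a diacylglycerol kinase, was at 0.19 ± 0.05 in PlGFCM (limma adjusted p = 0.159) and 0.18 ± 0.05 in IL6_ConCM (adjusted p = 0.379), and Irf4, a transcription factor of activated lymphocytes, at 0.15 and -0.12.

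**Figure D3:**
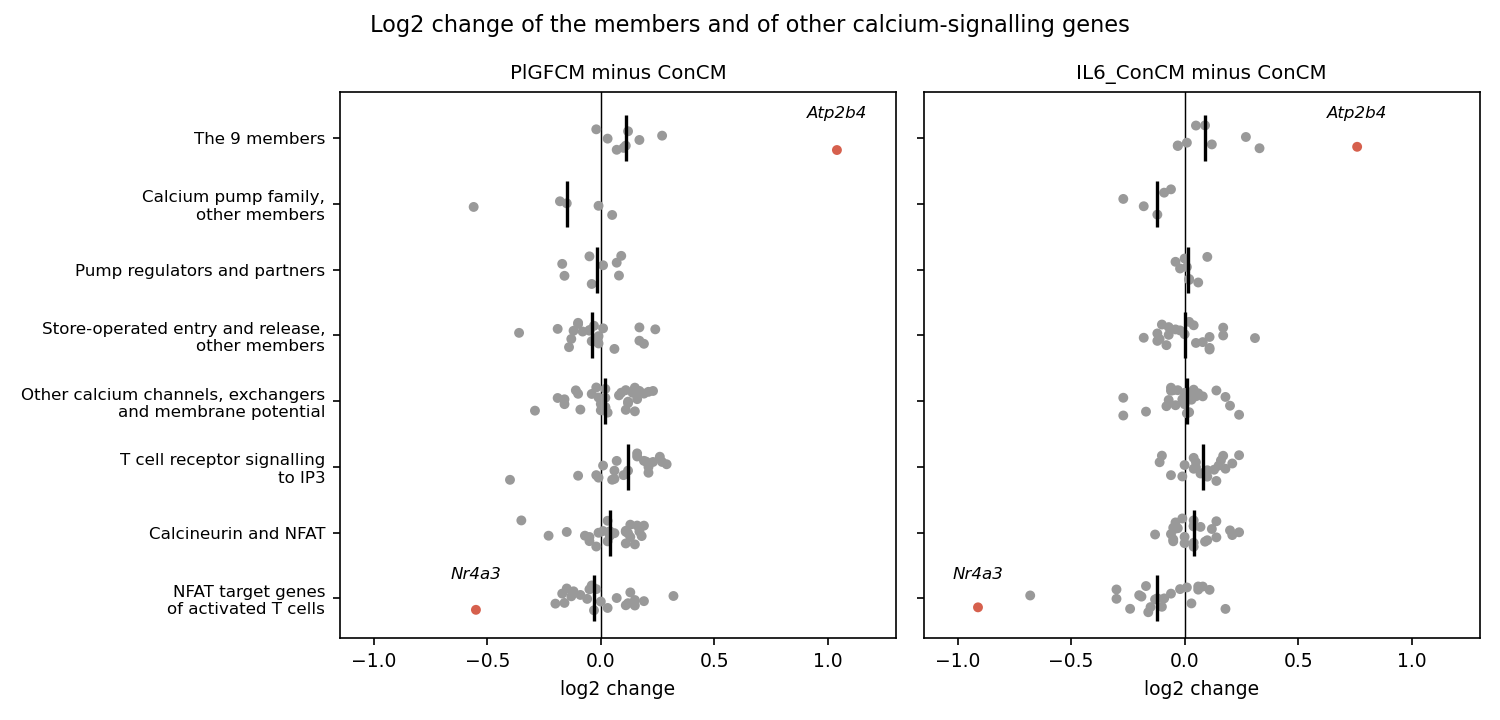
Log2 change (x axis) of the 9 members and of the 134 measured genes of 7 lists (rows) in PlGFCM minus ConCM and IL6_ConCM minus ConCM. Points are genes, red where the adjusted p is under 0.05, and black bars are medians. Atp2b4 at 1.04 and 0.76 and Nr4a3 at -0.55 and -0.91 are the named red points. As Atp2b4 was chosen for its increase, nothing is read from its color.

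Across all 22180 genes, those nearest to Atp2b4 over the 6 arrays were found by the Euclidean distance between log2 levels centred on each gene's mean, leaving out predicted gene models and unnamed clones. The nearest was Ust, a sulfotransferase that modifies glycosaminoglycans, at a distance of 0.07, where the median distance of all genes was 1.14. Ust had log2 levels of 8.62 and 8.69 in PlGFCM, 8.26 and 8.39 in IL6_ConCM and 7.72 and 7.51 in ConCM. Then followed Tgm2, a transglutaminase, at 0.31, Igfbp4, a binding protein of insulin-like growth factors, at 0.32, Selp, the adhesion molecule P-selectin, at 0.33, and the long non-coding RNA Morrbid at 0.35. Their log2 changes were 0.77 to 1.04 in PlGFCM and 0.60 to 0.92 in IL6_ConCM, against ConCM, beside 1.04 and 0.76 for Atp2b4. As these genes were picked for their nearness on the same arrays, this likeness follows from the choice. Selp lies on chromosome 1, as Atp2b4 does, Tgm2 and Morrbid on chromosome 2, Ust on 10 and Igfbp4 on 11. Among the members the nearest to Atp2b4 was Atp2a3, at 0.80, and the farthest Atp2a2, at 1.12. A gene with the same level on all 6 arrays would be at 1.09.

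**Figure D4:**
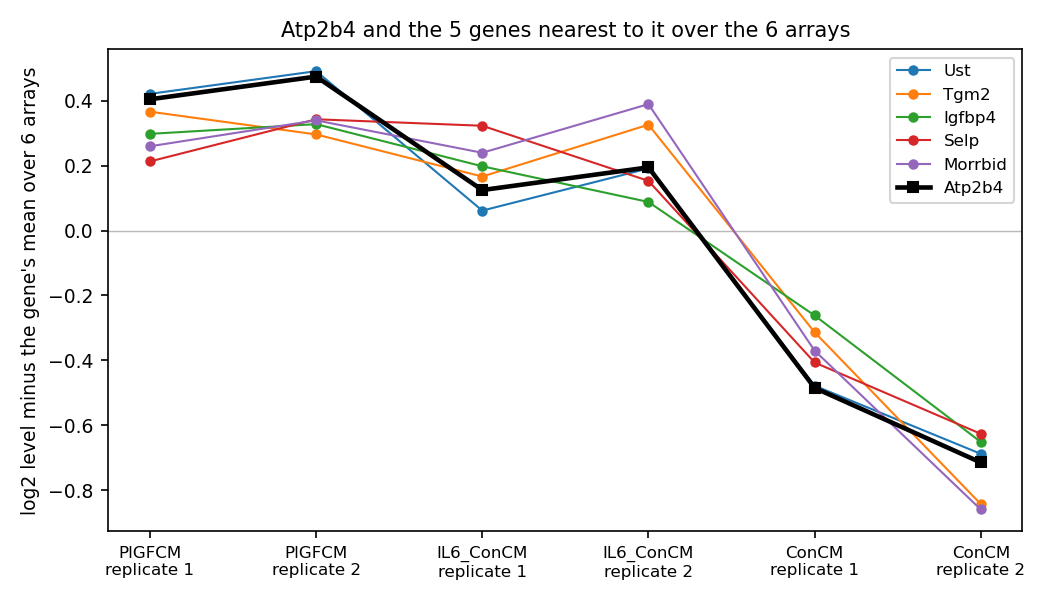
Log2 level minus the gene's mean over the 6 arrays (y axis) for Atp2b4 and the 5 genes nearest to it, on each array (x axis). Lines join the arrays of 1 gene and give no order to the replicates. All 6 genes are lowest on ConCM replicate 2, where Ust has a log2 level of 7.51 and Atp2b4 one of 8.96. The 5 were picked for their nearness, so the shared shape follows from the choice.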

How the data were processed

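Total RNA of 6 samples was hybridised to Affymetrix whole-transcript arrays. Per the submitters' processing notes, the authors used Transcriptome Analysis Console for the deposited log2 levels per probe set. No source used here names its version, background correction, normalization or genome build, and that the unit is log2 follows from the range of the values. No further normalization was applied. Of 41345 probe sets the platform annotation names 25335, 23521 with 1 symbol, and taking the brightest for each gene left 22180 genes, with none removed for a low level. All 9 measured members lay above the median level of all probe sets.

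Changes were tested with limma 3.58.1 in R 4.3.3 (lmFit and eBayes with an intensity trend, all 6 arrays, 3 residual and 8.141 prior degrees of freedom). The prior draws each gene's variance toward that of genes of like level. Benjamini-Hochberg adjustment was over all 22180 genes, and the procedure was tested on simulated data. Those data were drawn from the fit's own means and spread. They meet its assumptions by design and do not vouch for the calls given here. A gene "rose" or "fell" at an adjusted p under 0.05. As no label ties the replicates to separate mice or cultures, p-values measure only how far these samples spread, as estimated partly from other genes, and that spread may be technical. The members and lists were chosen with earlier results of these data known. Named genes are all members, list genes that passed or had the 3 smallest p in PlGFCM against ConCM, and the 5 genes nearest to Atp2b4. Itpka is named beside them for its level and direction. Start regions come from RefSeq. The 14 alternatives concerned normalization, filter, probe sets, variance model, samples in the fit, a replicate block and each array left out.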

Additional observations from a re-analysis of the deposited data

How the results depend on the processing

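The log2 change of Atp2b4 stayed above 0 under all 14 alternatives in each comparison, and no change of another member passed in any. Several alternatives cannot move a member's estimate and so do not test its sign. These are the filter, the variance model, the fit of the compared groups alone, the replicate block and leaving out arrays of the group outside the comparison. Averaging probe sets can move only Itpr3, as each other measured member, Atp2b4 included, has 1 probe set. Genes called in PlGFCM against ConCM numbered 173 with a filter at the median level, 6 without an intensity trend and 12 to 107 with an array left out (12 without PlGFCM replicate 2). In IL6_ConCM against ConCM they numbered 41 with array medians subtracted, 53 with the filter, 1 without the trend, 12 in a fit of those arrays alone and 2 to 41 with an array left out (2 without ConCM replicate 2). In PlGFCM against IL6_ConCM they numbered 11 with the filter, 0 without the trend and 0 to 5 with an array left out. Members called were 0 in both comparisons with ConCM without the trend, and 0 to 1 in IL6_ConCM with an array left out. With the replicate block, 62 genes were called in PlGFCM and 16 in IL6_ConCM against ConCM, and no call of a member changed. Same-numbered arrays correlated at -0.039 to 0.111 in their deviations from group means, so no large shift was shared by equal numbers. These values cannot show whether same-numbered samples came from the same mice or cultures. The causes were not tested.

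Signs turned in 24 of 378 values of members, none of them called. The 378 include the values of alternatives that cannot move an estimate, so the share that turned is higher among values that could. Relative to ConCM, Atp2a2 was at 0.01 in PlGFCM with medians subtracted and Itpr3 at -0.008 with its probe sets averaged. Relative to IL6_ConCM, Atp2a2 was at -0.015 in PlGFCM with quantile normalization and Itpr3 at -0.039 with its probe sets averaged. With an array left out, PlGFCM minus ConCM was -0.043 to 0.257 for Atp2b1, -0.098 to 0.058 for Atp2a2, -0.018 to 0.151 for Stim1, -0.057 to 0.123 for Orai1 and -0.085 to 0.279 for Orai2. IL6_ConCM minus ConCM was -0.025 to 0.13 for Atp2b1, -0.085 to 0.018 for Atp2a2, -0.005 to 0.027 for Stim2, -0.106 to 0.047 for Orai1 and -0.007 to 0.192 for Itpr3. PlGFCM minus IL6_ConCM was -0.096 to 0.204 for Atp2b1, -0.064 to 0.092 for Atp2a2, -0.121 to 0.004 for Atp2a3, -0.028 to 0.152 for Orai1 and -0.071 to 0.128 for Itpr3. Where an array was left out, the lone array of its group was assumed to vary like the other groups. The number of arrays limits the precision, and Orai2, the dimmest member, had the largest SE.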
